A study of Mus musculus with 28 samples.

Results

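The comparison concerns the pancreas and the liver of the same animals after induction of human A3B (APOBEC3B, a cytosine deaminase of DNA and RNA). Its members were found by a rule on titles: the A3B animals with a library from both tissues, which were mice 44, 49, 125, 137 and 153, or 10 of the 28 samples of the series. A3B mice carried the A3B-tGFP fusion under a tetracycline-responsive promoter in the ColA1 locus together with the CAGs-rtTA3 driver, whose promoter is active in most cell types. Controls 45 and 168 carried the A3B transgene without the driver, and both of their tissues were sequenced as well (4 libraries). The labels give 10 days on doxycycline food (625 ppm) for all 7 animals, controls included. The study's methods likewise describe control littermates on doxycycline food, whereas a figure legend gives the control animals as without doxycycline. The mice were young adults. The A3B transgene is human and its own level was not analysed here.

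The labels disagree on 4 of the pancreases. Pancreases 44 and 137 are titled as A3B samples but have the single-transgenic genotype in their label, and control pancreases 45 and 168 have the double-transgenic one, while the livers of the same animals carry genotypes that match their titles. Groups were taken from the titles, and results are given with and without mice 44 and 137 where that matters. Pancreases 44 and 137 held 242 and 195 TPM of Cdkn1a, against 1.89 to 9.89 in the control libraries, and 19829 and 45504 TPM of Reg3b, against 35.1 and 1013 in the control pancreases. On both genes they lay with the other A3B pancreases. Both libraries of a mouse went together in sex-linked RNA: summed TPM (a length-scaled abundance with the same total in every library) of the Y-linked genes Ddx3y, Uty, Kdm5d and Eif2s3y lay between 13.7 and 67.8 in both tissues of mice 125, 137, 153 and 168 and between 0.244 and 1.66 in both tissues of mice 44, 45 and 49. An exchange between mice 44 and 45, or between 137 and 168, would leave this pattern unchanged. Estimated counts per library ran from 65161064 to 118976013. In control pancreases 45 and 168 the 10 most abundant genes took 62.2% and 59.5% of all counts, and in the other 12 libraries 12.7% to 24.4%. Some libraries stood apart. Liver 49 held 122979 TPM of ribosomal protein transcripts against 40887 to 73507 in the other A3B livers, livers 44 and 153 held most of the pancreatic enzyme RNA found in a liver, and control pancreas 168 held intestinal transcripts that control pancreas 45 lacked.

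Acinar cells make up most of the pancreas and are devoted to secretion: they fill zymogen granules with protease precursors, lipases and amylase under a transcription factor complex of PTF1A, a bHLH partner and RBPJL. Hepatocytes, the main cells of the liver, secrete most plasma proteins and run the urea cycle, gluconeogenesis, bile acid synthesis and detoxification under HNF4A, C/EBP and other factors. Such tissue programmes are steep, so the comparison asks how much of the distance between the organs was still present in A3B animals. In whole tissue, fewer cells of a type and less RNA per cell cannot be told apart.

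The promoters below are those of an acinar protease (Prss2) that stood below its control level and of an elastase that stood much further below its own (Cela1). Each is the 250 bases before the RefSeq start on the gene's own strand (GRCm38.p6). Capitals mark CACCTG, the E-box of a PTF1A site, and TTCCCA, the box of the RBPJ family, searched on both strands.
Prss2, chr6:41521526-41521775 (plus strand): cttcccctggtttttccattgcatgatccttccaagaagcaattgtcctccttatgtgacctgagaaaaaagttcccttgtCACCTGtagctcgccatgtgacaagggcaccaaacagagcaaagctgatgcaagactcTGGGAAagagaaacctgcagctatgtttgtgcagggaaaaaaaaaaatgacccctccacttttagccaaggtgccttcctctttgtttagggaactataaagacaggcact
Cela1, chr15:100687921-100688170 (minus strand): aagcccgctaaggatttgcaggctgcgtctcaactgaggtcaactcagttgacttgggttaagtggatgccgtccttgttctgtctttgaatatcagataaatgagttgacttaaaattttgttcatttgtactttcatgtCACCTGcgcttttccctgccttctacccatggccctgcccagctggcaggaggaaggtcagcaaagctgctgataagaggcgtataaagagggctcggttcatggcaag
The E-box began 169 bases upstream of the start in Prss2 and 109 in Cela1, and the RBPJ-type box, on the other strand, 111 bases upstream in Prss2. Of 13603 tested genes with a RefSeq promoter, 16.4% held CACCTG and 21.3% TTCCCA in this window. For the 30 of 39 enzyme and granule genes with a promoter the shares were 53.3% and 46.7%, and for 55 of 68 plasma protein, coagulation and apolipoprotein genes 9.1% and 20%. A match of letters describes the promoter and does not show that a factor was bound.

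In the 5 A3B animals 10414 of 19611 genes differed between pancreas and liver with edgeR's quasi-likelihood test, the mouse as a block and a Benjamini-Hochberg adjusted p under 0.05, which is 53.1% of the genes tested. Of these, 6091 were higher in pancreas (31.1%) and 4323 higher in liver (22.0%). TPM ranges of the 5 pancreases and 5 livers did not overlap for 4527 genes with the pancreas above (23.1%) and for 2397 with the pancreas below (12.2%). These shares are the background for the gene groups that follow. Scaled to library totals, 8353 genes were higher and 2578 lower, so the higher share of calls moved from 58.5% to 76.4% and the median over all tested genes from 0.18 to 0.66 on the log2 scale. Without mice 44 and 137, 6132 genes were called, of which 6055 were also called in all 5 mice in the same direction and 0 in the opposite one. All fold changes are pancreas minus liver unless a sentence says otherwise.

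The control animals gave 7764 calls (39.6%), 3567 higher (18.2%) and 4197 lower (21.4%) in pancreas. The distance between the organs itself was compared through the rank correlation of all tested genes between the tissues of one animal. Spearman's rho was 0.818, 0.848, 0.791, 0.785 and 0.799 in A3B mice 44, 49, 125, 137 and 153, and 0.762 and 0.731 in controls 45 and 168. Every A3B animal lay above both controls, but an exact two-sided permutation test of 5 against 2 animals cannot go below its value here, p = 0.0952.

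The acinar secretory load was measured as a share of the TPM assigned to genes. The 39 genes of the protease list, the lipase, amylase and ribonuclease list and the zymogen granule list held 34.5%, 18.5%, 19.3%, 23.1% and 27.9% of TPM in A3B pancreases 44, 49, 125, 137 and 153, and 64.0% and 61.6% in control pancreases 45 and 168 (24.7% ± 6.67, n = 5, against 62.8% ± 1.68, n = 2). The A3B and control ranges did not overlap, and the exact permutation p was again 0.0952, the smallest possible. In A3B livers the same genes held between 0.00345% and 0.116% of TPM. The liver counterpart was less far apart. The 35 genes of plasma carriers and protease inhibitors held 12%, 5.96%, 13.4%, 13% and 15.3% of TPM in the A3B livers, in the same order of mice, and 21.9% and 14.8% in the controls (exact permutation p = 0.190), with 1 A3B liver above the lower control. In pancreas this list reached 0.0597% to 0.251% in A3B animals and 0.0119% and 0.0145% in controls.

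**Figure D1:**
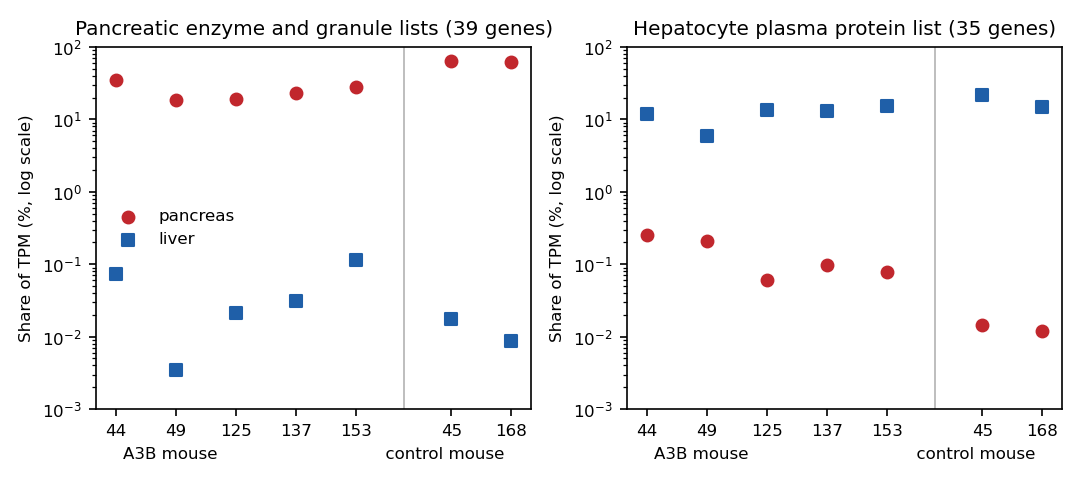
Share of TPM (%, log scale) held by 39 pancreatic enzyme and granule genes and by 35 hepatocyte plasma protein genes in the pancreas (circles) and liver (squares) of each mouse. Enzyme shares of the 5 A3B pancreases, 18.5% to 34.5%, lie below both control pancreases, and plasma protein shares of the A3B pancreases, 0.0597% to 0.251%, lie above both.

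Levels of A3B and control pancreases depended on the scale. The scaling factors of the tests (TMM, which sets the bulk of genes equal between libraries) were 0.24 and 0.507 for control pancreases 45 and 168 and 1.34 to 1.97 for the A3B pancreases. In TPM all 5 A3B pancreases lay above both controls for 52 of the 86 named genes. On the TMM scale, a view added after the data were seen, 28 of these 52 still did, 21 overlapped and 3 (Ptf1a, Nkx2-2 and Reg1) lay below both controls. Below both controls were 11 genes in TPM, all of them on the TMM scale as well, and 18 on the TMM scale. In liver 14 of 18 genes above both controls in TPM were so on the TMM scale, and 4 overlapped. The 39 enzyme and granule genes were below both controls in all A3B pancreases on either scale. The plasma carriers and inhibitors were above both controls in 3 of 5 A3B pancreases on the TMM scale, and below both in all 5 A3B livers. Levels that follow are in TPM unless TMM is named.

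Digestive enzymes kept a steep pancreas side. All 17 digestive proteases were called higher in A3B pancreas, with a median log2 fold change of 12.07, and in all 17 the TPM ranges of the tissues did not overlap. Of the 13 lipases, amylases and ribonucleases 12 were called higher (median 10.21), and of 9 zymogen granule proteins and inhibitors 9 (median 9.45). In controls the same lists had medians of 15.76, 16.80 and 15.12, counting a gene with no reads in the control livers at the fold that 3 counts over the group would give. Trypsin, amylase and elastase genes have near-identical copies, so the split of reads within these families is uncertain.

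Members differed widely in how much of their control level was present. Prss2, an anionic trypsinogen, stood at 28193, 20781, 21597, 18056 and 23733 TPM in A3B pancreases 44, 49, 125, 137 and 153 and at 31430 and 36500 in the controls. In the A3B livers it was 37.1, 0, 0.0256, 0 and 73.8 TPM. Pancreas and liver ranges were far apart, with livers 44 and 153 above the rest (log2 fold change 15.59 ± 3.2, SE, adjusted p = 0.00491). Ctrb1, chymotrypsinogen B, was the most abundant of all, with 113874, 57983, 58496, 81755 and 101822 TPM in the A3B pancreases, 25751 and 24605 in the control pancreases, and 0 to 371 in the A3B livers (15.31 ± 3.27, adjusted p = 0.00493). In TPM it was thus higher in every A3B pancreas than in either control, while on the TMM scale 0 of 5 lay above both controls and 2 lay below both. The trypsinogen Try5 was similar, with 21773 to 42253 TPM in A3B pancreases and 12251 and 8375 in controls (15.54 ± 3.23, adjusted p = 0.00497), and 3 of 5 below both controls on the TMM scale. Because TPM values add up to a fixed sum, a gene can take a larger share when others take less.

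Elastase and amylase were on the other side. Cela1, a pancreatic elastase, stood at 944, 857, 2477, 4578 and 5444 TPM in the A3B pancreases against 156927 and 135096 in the controls, and at 4.88 to 19.9 TPM in the A3B livers. The tissue difference was still called (8.19 ± 0.90, adjusted p = 0.000184). For Cela1 the A3B pancreases lay between the 2 sets of values, far above the livers and far below the control pancreases. Amy2a5, a pancreatic amylase, had 865 to 3216 TPM in A3B pancreases, 37843 and 41312 in control pancreases and 0.029 to 6.49 in A3B livers (10.21 ± 1.21, adjusted p = 0.000248). Pnlip, the main triglyceride lipase, had 271 to 1857 TPM in A3B pancreases, 35134 and 36336 in the controls and 0 to 9.70 in A3B livers (11.50 ± 2.41, adjusted p = 0.00617). Neither gene's difference between A3B and control animals passed the test (adjusted p = 0.185 and 0.454). Their control livers held between 0 and 4.48 TPM, and liver 45 alone accounted for all of it. The carboxypeptidase Cpa1 and the lipase cofactor Clps lay between these patterns in TPM. Cpa1 had 4157 to 8769 TPM in A3B pancreases and 6700 and 7819 in controls, and Clps 4533 to 9033 against 30150 and 29927. Their tissue differences were 14.70 ± 3.04 and 13.29 ± 2.34 (adjusted p = 0.00545 and 0.0027). On the TMM scale both genes were below both controls in all 5 A3B pancreases.

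A tissue difference smaller in A3B than in control animals was called by edgeR for 2 of 17 proteases and 2 of 9 granule proteins, against 2.52% of all genes tested with a difference below 0. It was called for 0 of the 13 lipase, amylase and ribonuclease genes, 5 of which had an unadjusted p under 0.05, and DESeq2 called 4 of the 13. Among the members called by edgeR were Cela3a, a further elastase, Zg16, a zymogen granule lectin, and Spink1, the trypsin inhibitor that guards against early activation. Cela3a was 8.96, 22.2, 12.6, 2.85 and 45.0 TPM in A3B pancreases and 96.0 and 43.2 in controls, with 0 counts in both control livers. Zg16 was 5765 to 12016 TPM in A3B pancreases, 16898 and 20533 in control pancreases, 9.19 to 140 in A3B livers and 9.29 and 2.65 in control livers. Its log2 fold change was 8.13 ± 0.66 in A3B and 14.33 ± 1.62 in control animals, and the difference was -6.31 ± 1.30 (adjusted p = 0.0242). Both ends had moved: the lectin was lower in A3B pancreas and, in 4 of 5 animals, more than 50 TPM in the liver. Spink1 was 635 to 1336 TPM against 5088 and 3453 in pancreas and 0.443 to 7.33 against 0.158 and 0.0881 in liver (difference -7.75 ± 1.27, adjusted p = 0.0138). Tff2, a trefoil peptide of the granules, had 386, 870, 3133, 450 and 589 TPM in A3B pancreases, 9324 and 8277 in controls and 0.0772 to 1.98 in A3B livers (10.06 ± 1.16, adjusted p = 0.000399).

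Acinar transcription factors were less uniform. Of 8, 6 were called higher in A3B pancreas (median 1.93) and 2 were not called. Ptf1a stood at 38.8, 35.7, 26.8, 30.2 and 35.3 TPM in A3B pancreases, 12 and 16.9 in controls, and 0 to 0.189 in A3B livers (9.83 ± 0.86, adjusted p = 0.00011). Rbpjl, its acinar partner, was 25.3, 80.5, 21.4, 5.24 and 101 TPM in A3B pancreases and 90 and 87.6 in controls (7.6 ± 1.08, adjusted p = 0.00107). In TPM Ptf1a was above both controls in every A3B pancreas and Rbpjl ranged from well below them to slightly above, but on the TMM scale both genes were below both controls in all 5. TMM-scaled CPM of Ptf1a, its read count relative to the scaled library size, was 20.2 to 34.4 in A3B pancreases against 65.8 and 40.1. Xbp1, the transcription factor of the unfolded protein response that secretory cells need, was 294 to 387 TPM in pancreas and 92.6 to 141 in liver of A3B animals (1.49 ± 0.25, adjusted p = 0.00128, and 0.0622 without mice 44 and 137).

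The Reg family, small secreted lectins known to be induced in injured and regenerating pancreas, lay far on the pancreas side. In A3B animals 6 of 7 members were called higher there, with a median log2 fold change of 12.98. Reg3b, the gene with the largest pancreas-sided fold change among called genes whose mean reached 10 TPM in an A3B tissue and whose sign was the same in all 5 mice, stood at 19829, 19242, 36678, 45504 and 39097 TPM in the A3B pancreases and 27.4, 0, 0.0269, 0.0533 and 70.1 in the livers (15.91 ± 3.11, adjusted p = 0.00359). Control pancreases 45 and 168 held 35.1 and 1013 TPM. Reg2 was 21725 to 28828 TPM in A3B pancreases against 66.4 and 634 in controls (10.29 ± 0.93, adjusted p = 6.55e-05), and Reg1 was 21434 to 25338 against 13416 and 12958 (14.26 ± 2.47, adjusted p = 0.00193). The family's summed TPM was 71014 to 110511 in A3B pancreases and 13625 and 15071 in controls. On the TMM scale Reg3b and Reg2 stayed above both controls in all 5 A3B pancreases, Reg1 was below both, and the family's sum was above both in 2 of 5. The difference between A3B and control animals did not pass for Reg3b, Reg1 or Reg2 (adjusted p = 0.689, 0.677 and 0.54). Reg3b and the other Reg3 genes are close copies and share reads.

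Islet genes kept their pancreas side. All 20 islet hormone and granule genes were called higher in A3B pancreas, with a median of 9.67 against 9.31 in controls at the 3-count bound, and 10 of 11 tested islet transcription factors were called higher. Ins2, insulin, was 6360, 3998, 6732, 10643 and 2824 TPM in A3B pancreases, 2535 and 2609 in controls and 0 to 5.62 in A3B livers (13.24 ± 2, adjusted p = 0.00132). Gcg, glucagon, was 1019, 313, 417, 641 and 122 TPM against 101 and 102 in controls (13.15 ± 1.52, adjusted p = 0.000401), with 0 counts in 4 of 5 A3B livers. Both hormones were higher in every A3B pancreas than in the controls as a share of TPM, and the lowest values of both were those of mouse 153. On the TMM scale Ins2 was below both controls in 4 of 5 A3B pancreases, and Gcg was above both in 1 and below both in 2. Nkx2-2 and Pdx1, islet transcription factors, were 3.96 to 6.60 and 2.19 to 3.82 TPM in A3B pancreases against 3.28 and 2.16, and 0.699 and 1.10, in controls (9.83 ± 0.71 and 7.39 ± 0.72 between the A3B tissues, adjusted p = 2.85e-05 and 8.96e-05). On the TMM scale Nkx2-2 was below both controls in all 5 and Pdx1 in 4.

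Ductal markers were mostly pancreas-sided. Of 16, 11 were called higher in A3B pancreas, 1 lower and 4 were not called (median 5.09, controls 3.07). The difference from controls was called above 0 for 2 and below 0 for 1, against 5.47% and 2.52% of all genes tested, and was not called for 13. Scaling by library totals called 9 of 16 above 0 and limma on log2(TPM + 1) called 10 of 15, with 0 below in either; edgeR without mice 44 and 137 called 0 of 16 in either direction. Their summed TPM was 2959 to 5449 in A3B pancreases and 186 and 298 in control pancreases, against 608 to 1221 in A3B livers. Krt7, a duct keratin, was 96.9, 41.7, 42.4, 62.1 and 36.0 TPM in A3B pancreases and 0.414 to 1.55 in their livers (5.96 ± 0.23, adjusted p = 6.77e-06), and the difference from controls was called (2.19 ± 0.44, adjusted p = 0.0223). Spp1, osteopontin, which ducts and macrophages make, was 813 to 1945 TPM in A3B pancreases and 43.3 and 56 in controls (6.44 ± 0.61, adjusted p = 7.94e-05; difference 4.04 ± 0.88, adjusted p = 0.0288). Krt19 and Epcam, epithelial markers of ducts, were 187 to 498 and 78.4 to 122 TPM in A3B pancreases and 1.37 to 13.5 and 0.587 to 3.19 in livers, with fold changes of 6.44 ± 0.47 and 6.13 ± 0.34 (adjusted p = 3.31e-05 and 1.17e-05).

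Genes of the secretory machinery were divided. Of 44 tested genes of the endoplasmic reticulum, 6 were called higher in A3B pancreas, 21 lower and 17 were not called (median -0.58), and controls had 15 higher and 9 lower. With library totals as the scale the A3B counts were 9 and 9 and the control counts 8 higher and 21 lower. The contrast with controls turned with the scale. By edgeR with TMM scaling the difference was called above 0 for 0 genes and below 0 for 7, against 5.47% and 2.52% of all genes tested. With library totals it was called for 17 and 2, against 8059 and 118 of all 19611 genes tested. Without mice 44 and 137 the A3B contrast had 4 higher and 13 lower calls. Pdia2, a disulphide isomerase of acinar cells, remained pancreas-sided at 158, 210, 205, 200 and 421 TPM against 0 to 1.15 in A3B livers, and stood at 4540 and 3478 in control pancreases (10.29 ± 1.26, adjusted p = 0.000551). The chaperones Hspa5 (226 to 389 TPM in pancreas, 551 to 861 in liver, -1.30 ± 0.34, adjusted p = 0.0127) and Calr (144 to 272 and 387 to 662, -1.32 ± 0.31, adjusted p = 0.00734) were higher in the A3B livers, without overlap. The call on Hspa5 was lost without mouse 125 (adjusted p = 0.0539) and without mice 44 and 137 (0.0530). Spcs2, a signal peptidase subunit, was 60.8 to 94.1 TPM in pancreas and 108 to 179 in liver (-0.78 ± 0.15, adjusted p = 0.00284), which was not called with library totals (adjusted p = 0.138). Ribosomal protein genes were called higher in A3B pancreas for 52 of 73 (median 1.05), for 64 without mouse 49 and for 1 without mice 44 and 137, and respiratory chain subunits lower for 49 of 55 (median -1.26) and for 36 with library totals. For both lists the median of the difference from controls changed size or sign with the scale (-2.24 and -0.57 for ribosomal proteins, -1.33 and 0.34 for respiratory subunits).

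**Figure D2:**
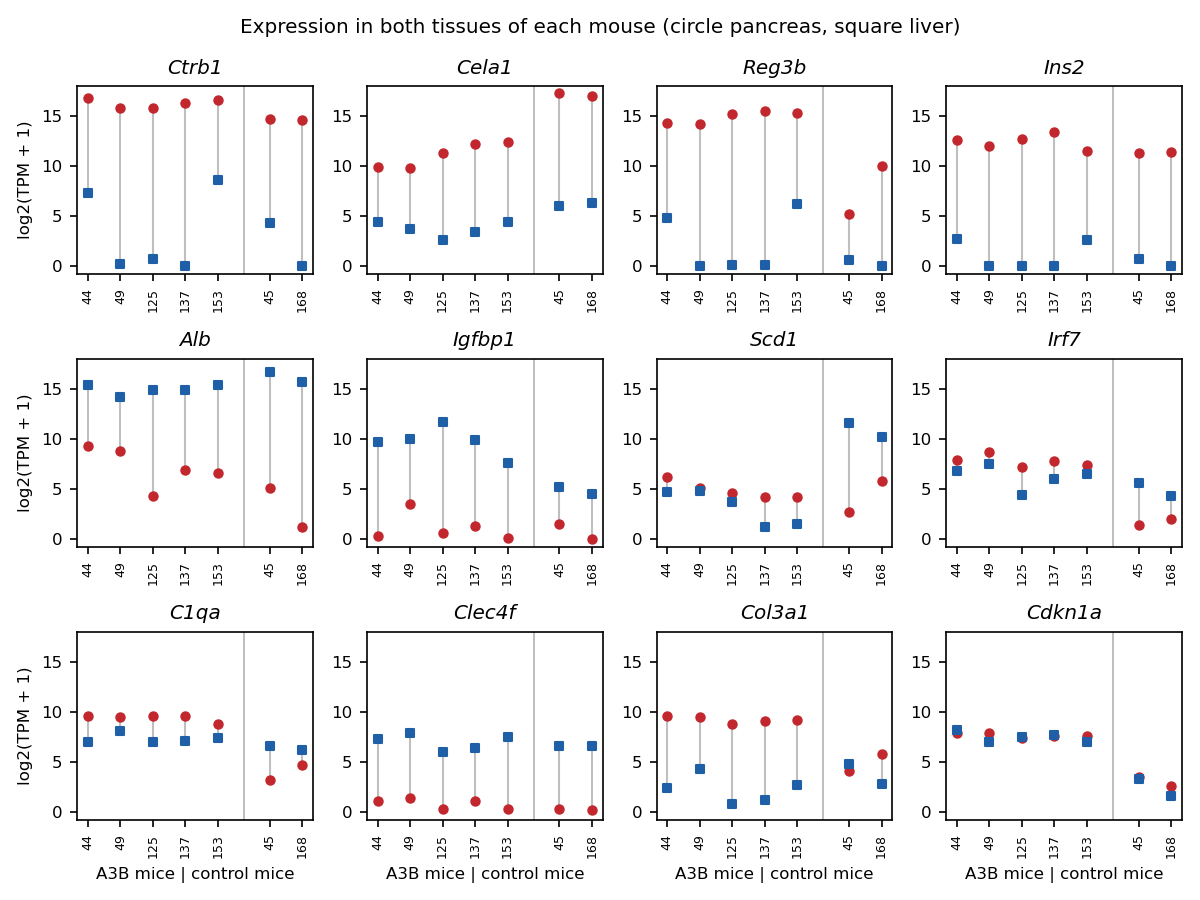
Expression, log2(TPM + 1), of 12 genes in the pancreas (circles) and liver (squares) of the 5 A3B and 2 control mice, joined by mouse. Cela1 is lower and Reg3b higher in all A3B pancreases than in controls, Scd1 is at most 26.6 TPM in every A3B liver, and Irf7 and C1qa lie above the liver in each A3B pancreas and below it in each control.

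On the liver side, secreted proteins kept a steep difference. In A3B animals 34 of 35 plasma carriers and protease inhibitors were called lower in pancreas (median -7.34), as were 16 of 16 coagulation factors (median -7.15), 17 of 17 apolipoproteins and assembly factors (median -7.35) and 18 of 19 complement components (median -4.62). Control medians for these lists, at the bound, were -9.46, -10.02, -10.02 and -7.86. Alb, albumin, stood at 43337, 19353, 29640, 30354 and 44124 TPM in A3B livers 44, 49, 125, 137 and 153 and at 107806 and 54669 in control livers. In the pancreases it was 634, 454, 19.1, 120 and 94.0 TPM, and 32.7 and 1.19 in controls. All A3B livers were below both controls, and the tissue difference was -7.93 ± 1.37 (adjusted p = 0.00157). Ahsg, fetuin-A, had 8047 to 19034 TPM in A3B livers and 14279 and 10278 in controls (-8.38 ± 1.19, adjusted p = 0.000591), so its liver ranges overlapped. Apoa1, the main protein of HDL, had 8031 to 17763 and 13551 and 14386 TPM (-7.95 ± 0.95, adjusted p = 0.000243), and Fga, a fibrinogen chain, 1684 to 6704 and 3663 and 3274 (-7.14 ± 0.69, adjusted p = 8.68e-05).

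Some secreted proteins had a smaller liver side than in controls. Serpina6, corticosteroid-binding globulin, was the 1 plasma carrier without a call: 48.4, 112, 34.6, 18.8 and 15.6 TPM in A3B pancreases, 19.3, 1.05, 15.1, 10.5 and 24.9 in A3B livers, 0.106 and 0.114 in control pancreases and 460 and 225 in control livers. A strong liver gene of the controls thus had overlapping ranges in the A3B tissues (1.34 ± 0.93, adjusted p = 0.26; difference 11.32 ± 1.97, adjusted p = 0.0197). Kng2, a kininogen, was 11.7 to 20.1 TPM in A3B pancreases against 0.527 and 0.474 in controls, and 109 to 190 in A3B livers against 275 and 171 (difference 4.15 ± 0.43, adjusted p = 0.00738). A difference above 0 was called for 8 of 19 complement components, 3 of 35 carriers and inhibitors, 1 of 16 coagulation factors and 1 of 17 apolipoprotein genes, against 5.47% of all genes tested. C3, the central component, was 155 to 394 TPM in A3B pancreases against 3.51 and 34.8 in controls, with 1551 to 7107 in A3B livers (-3.97 ± 0.74, adjusted p = 0.0023, and 0.0704 without mice 44 and 137). Cfb, factor B, was 105 to 201 TPM in pancreas against 1.47 and 15.4 (difference 4.03 ± 1, adjusted p = 0.0406). Apoe, which macrophages make as well as hepatocytes, was 1280 to 5352 TPM in A3B pancreases and 68.7 and 160 in controls, with 10463 to 21673 in A3B livers (-2.68 ± 0.65, adjusted p = 0.00846, and 0.0683 without mice 44 and 137).

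Acute phase genes summed to 14411 to 45012 TPM in A3B livers, above the 9440 and 10080 of the control livers. In pancreas the sum was 4117 to 11750 TPM in A3B mice against 191 and 577, and Lcn2 alone held 3348 to 11171 TPM of it in A3B mice. Of 15, 12 were called lower in pancreas, 1 higher and 2 were not called. Hp, haptoglobin, was 5613 to 19725 TPM in A3B livers against 2662 and 1982 in controls and 33.9 to 251 in A3B pancreases (-6.90 ± 0.91, adjusted p = 0.000405). Lcn2, lipocalin 2, an iron-scavenger carrier of innate defence, was the member on the pancreas side: 11171, 3348, 8193, 9820 and 4709 TPM in pancreas and 1525, 1447, 2768, 2299 and 1489 in liver, against 3.01 to 12.8 TPM in the 4 control libraries. The A3B pancreases lay above the livers without overlap (1.70 ± 0.52, adjusted p = 0.0228). The call on Lcn2 was lost when any of mice 44, 125, 137 or 153 was left out (highest adjusted p = 0.121) and without mice 44 and 137 (0.293).

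Metabolic programmes of the hepatocyte kept their liver side almost throughout. Amino acid catabolism was lower in A3B pancreas for 26 of 26 genes (median -6.72), glucose metabolism for 13 of 14 (median -5.64), bile acid synthesis for 11 of 12 (median -5.89) and the urea cycle for 8 of 9 (median -5.74). Cps1, the entry enzyme of the urea cycle, had 397 to 1313 TPM in A3B livers and 1.20 to 8.66 in pancreases (-8.20 ± 0.91, adjusted p = 0.000169). Tat, tyrosine aminotransferase, a glucocorticoid-responsive gene, had 1077 to 7498 TPM in A3B livers against 1341 and 435 (-9.11 ± 1.22, adjusted p = 0.000435), and Pck1, the gluconeogenic PEPCK, 795 to 4478 against 2353 and 1253 (-8.59 ± 1.20, adjusted p = 0.000528). Liver 49 held the lowest level of Cps1, Tat and Pck1 among the A3B livers, and pancreas 49 the highest.

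Glul, glutamine synthetase, which in liver marks hepatocytes around the central vein, was the urea cycle list's exception. It was 873, 261, 1116, 646 and 217 TPM in A3B pancreases and 183, 85.5, 396, 216 and 243 in livers, so that 4 of 5 animals had more in pancreas, while controls had 28.8 and 25.3 in pancreas and 627 and 393 in liver. The A3B call (1.27 ± 0.45, adjusted p = 0.0409) was lost without mouse 44, 49, 125 or 137 (highest adjusted p = 0.175). Without mice 44 and 137 together the fold change was 0.62 (adjusted p = 0.45). The difference from controls was 4.03 ± 0.89 (adjusted p = 0.0294).

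Among called genes whose mean reached 10 TPM in an A3B tissue and whose sign was the same in all 5 mice, the most liver-sided were Igfbp1, a secreted IGF-binding protein induced in fasting and stress, and P450 hydroxylases of fatty acids. Igfbp1 was 812, 1008, 3256, 977 and 187 TPM in A3B livers and 0.230, 9.94, 0.466, 1.46 and 0.0394 in pancreases (-10.76 ± 1.19, adjusted p = 0.000222), against 35.7 and 21.1 in control livers. All A3B livers were above both controls. Cyp4a14 was 1214 to 3187 TPM in A3B livers against 245 and 221 in controls (-9.88 ± 1.20, adjusted p = 0.000285), and Cyp4a10, a close copy, 1422 to 5788 against 446 and 442 (-9.59 ± 1.26, adjusted p = 0.000404). Cyp4a12a, known as a male-predominant P450, was 25.8 and 1.44 TPM in livers 44 and 49 and 116 to 198 in livers 125, 137 and 153, and 0.559 and 303 in control livers 45 and 168. It was thus highest in the livers with Y-linked RNA (-9.17 ± 1.82, adjusted p = 0.00499, and 0.0662 without mice 44 and 137). The fifth gene, Gm10319, was 0.323 TPM in liver 49 and 22.8 to 81.9 in the other A3B livers, and lost its call without mouse 137 (adjusted p = 0.0574).

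Of 50 tested P450 genes of families 1 to 4, 43 were called lower in A3B pancreas (median -6.06), and of 35 conjugation enzymes 31 (median -3.02). Summed P450 TPM was 5971 to 17958 in A3B livers and 19753 and 20392 in controls. Cyp2e1, the ethanol-inducible P450, was 956, 437, 2573, 2710 and 1874 TPM in A3B livers against 4846 and 6007 (-7.16 ± 1.18, adjusted p = 0.00148). The difference from controls was called above 0 for 9 of the 35 conjugation enzymes, against 5.47% of all genes tested. Ugt1a9, a glucuronosyltransferase, was 17.5 to 51.8 TPM in A3B livers against 53.7 and 93.1, and 0.294 to 0.774 in A3B pancreases against 0 counts in controls. Genes of the Ugt1a locus share their 3′ exons. Sult1e1, estrogen sulfotransferase, went the other way: 258, 98.3, 281, 246 and 172 TPM in A3B livers, 0.379 and 0.0457 in control livers and at most 2.28 in any pancreas. It was liver-sided in each A3B animal (-8.08 ± 0.67, adjusted p = 7.86e-05; difference -9.84 ± 2.05, adjusted p = 0.0301).

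Hepatocyte transporters were lower in A3B pancreas for 15 of 16 genes (median -4.82). Slc10a1, the bile acid importer NTCP, kept 87.2 to 778 TPM in A3B livers against 672 and 429 (-7.67 ± 1.26, adjusted p = 0.00192). The major urinary proteins, near-identical pheromone carriers that male livers make most, were called lower for 3 of 19 tested genes. Their summed TPM was 35.5 to 2271 in A3B livers and 10463 and 106179 in controls.

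Transcription factors of the hepatocyte were lower in A3B pancreas for 19 of 20 genes (median -2.36, controls -4.34). Hnf4a stood at 595, 280, 596, 429 and 385 TPM in A3B livers against 234 and 182 in controls and at 11.6 to 35.9 in A3B pancreases against 1.29 and 6.94. In TPM it was higher in both A3B organs, but on the TMM scale it was above both controls in 4 of 5 pancreases and 4 of 5 livers and below both in pancreas 125 and liver 49. The fold change was -4.89 ± 0.47 in A3B and -4.97 ± 0.77 in control animals. Foxa1 likewise differed by -5.12 ± 0.26 and -4.93 ± 0.60. Creb3l3, a liver and gut factor of fasting metabolism, was 8.75 to 16.5 TPM in A3B pancreases against 0.0605 and 0.183 in controls, with 193 to 275 TPM in A3B livers against 218 and 192 (difference 4.87 ± 0.54, adjusted p = 0.00738). Cebpa was 28.5 to 41.3 TPM in A3B pancreases against 2.48 and 4.8, and 38.1 to 170 in A3B livers against 158 and 196 (difference 2.41 ± 0.61, adjusted p = 0.0439).

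Sterol and fatty acid synthesis was the liver programme with the most frequent loss of distance. All 29 genes were called lower in pancreas in controls (median -3.94). In A3B animals 18 were lower, 4 higher and 7 not called (median -1.10), and for 19 of 29 the difference from controls was called, against 5.47% of all genes tested with a difference above 0. Summed TPM was 1084, 628, 803, 736 and 958 in A3B livers 44, 49, 125, 137 and 153 against 7019 and 2997 in controls, and 337 to 466 in A3B pancreases against 62.1 and 170. The A3B livers were below both controls in all 5 animals on either scale. The pancreas end turned with the scale: above both controls in all 5 animals in TPM, and below both in 4 of 5 on the TMM scale (553 to 1016 CPM against 698 and 1038).

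Scd1, the desaturase that makes oleate, was 25.0, 26.6, 11.5, 1.21 and 1.73 TPM in A3B livers and 73.2, 32.8, 23.7, 17.6 and 16.5 in the pancreases, while controls had 3160 and 1155 in liver and 5.61 and 55.9 in pancreas. In TPM each A3B pancreas was above its own liver, though in mouse 49 the TMM-scaled log2 difference was -0.024 (2.40 ± 0.66, adjusted p = 0.0188), and controls had the opposite sign (-5.03 ± 1.30, adjusted p = 0.013). The difference was 7.32 ± 1.53 (adjusted p = 0.025). Srebf1, the transcription factor of lipogenesis, was 21.1 to 41.0 TPM in A3B pancreas and 8.97 to 26.8 in A3B liver against 225 and 69.4 in control livers (0.62 ± 0.18, adjusted p = 0.0194; difference 4.07 ± 0.45, adjusted p = 0.00738). Mvd, of the mevalonate pathway, was 6 to 8.78 and 2.49 to 4.74 TPM (0.94 ± 0.22, adjusted p = 0.00657). All 3 higher calls were lost without mice 44 and 137 (adjusted p = 0.136, 0.252 and 0.0698), that of Scd1 also without mouse 44 or 153 (highest 0.0654) and that of Srebf1 without mouse 44, 125, 137 or 153 (highest 0.151). Fads1, a desaturase of polyunsaturated fatty acids, kept the liver side at 24.8 to 48.1 against 13.1 to 22.1 TPM (-1.10 ± 0.16, adjusted p = 0.000629; difference 3.37 ± 0.42, adjusted p = 0.00738).

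Fatty acid oxidation held its direction. Of 19 genes 17 were called lower in A3B pancreas (median -1.92, controls -3.60). Their summed TPM was 4272 to 5543 in A3B livers against 6616 and 5611 in controls, and 1190 to 1958 in A3B pancreases against 107 and 168.

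**Figure D3:**
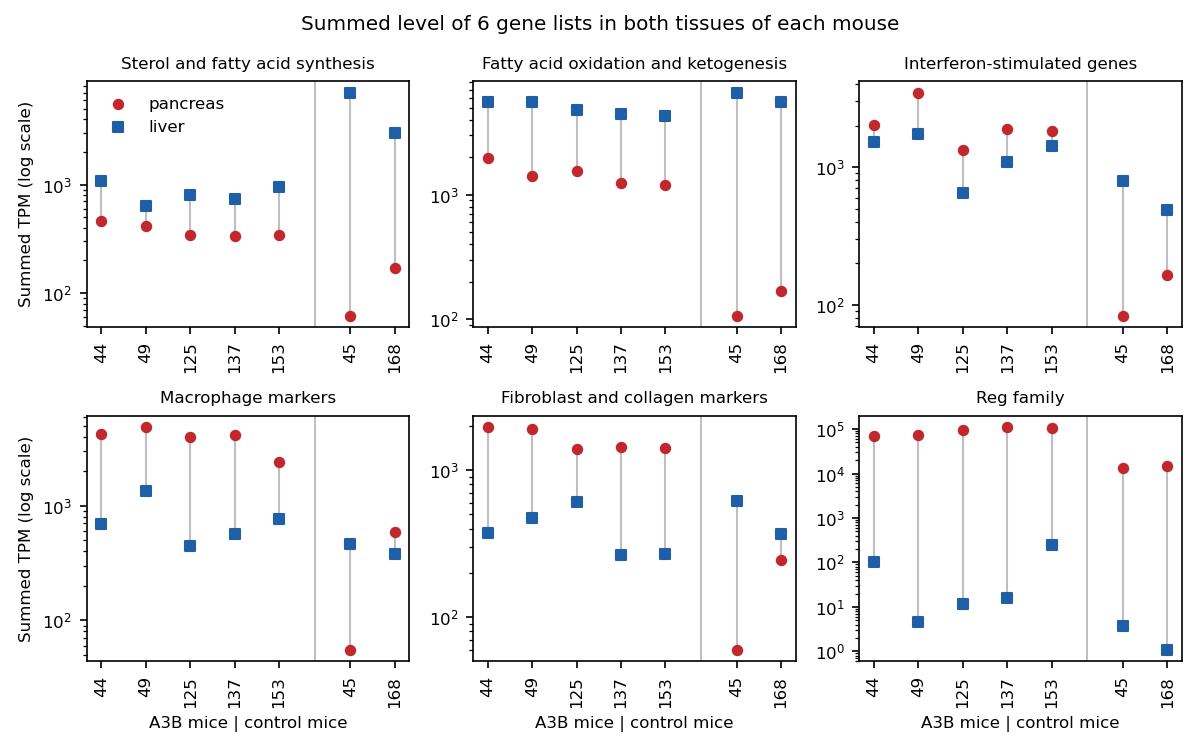
Summed TPM (log scale) of 6 gene lists in the pancreas (circles) and liver (squares) of the 5 A3B and 2 control mice, joined by mouse. The sterol list lies at 628 to 1084 TPM in A3B livers against 2997 and 7019 in controls, and interferon-stimulated genes lie higher in pancreas than in liver in each A3B mouse and lower in each control.

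The median of the interferon-stimulated genes changed sides. In controls 0 of 30 were called higher in pancreas and 16 lower (median -1.72). In A3B animals 16 were higher, 1 lower and 13 not called (median 1.06, with 22 higher and 0 lower by library totals). For 15 of the 30 the difference from controls was called above 0, against 5.47% of all genes tested. Irf7, the factor that amplifies the response, was 239, 420, 145, 221 and 171 TPM in A3B pancreases and 107, 177, 20.1, 64.1 and 90 in their livers, against 1.59 and 3.08, and 45.5 and 17.9, in controls. Each A3B pancreas was above its own liver (1.42 ± 0.31, adjusted p = 0.00497, and 0.101 without mice 44 and 137; difference 3.71 ± 0.58, adjusted p = 0.0135). Oasl2, an antiviral effector, was 44.8 to 236 TPM in A3B pancreas and 1.75 to 29.6 in A3B liver (3.26 ± 0.28, adjusted p = 5.37e-05). The controls had no common side for it, with log2 differences of -0.78 in mouse 45 and 1.39 in mouse 168. Its difference from controls was 2.83 ± 0.64 (adjusted p = 0.0314). Bst2, tetherin, was 207 to 477 and 77.9 to 303 TPM, not called in A3B animals with TMM scaling (0.50 ± 0.23, adjusted p = 0.101) but called by library totals (adjusted p = 0.0076), and the difference was 3.49 ± 0.45 (adjusted p = 0.00738).

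Macrophage markers moved in the same direction. Of 16, 13 were called higher in A3B pancreas (median 1.80) and 8 were called lower in control pancreas (median -1.31). The difference was called above 0 for 8, against 5.47% of all genes tested. Without mice 44 and 137 the A3B count was 6. Summed TPM was 2427 to 4849 in A3B pancreases, 449 to 1354 in A3B livers, 54.9 and 595 in control pancreases and 378 and 464 in control livers. Lyz2, lysozyme, was 1506, 2174, 1826, 1567 and 952 TPM in A3B pancreases and 48.7, 283, 31.6, 57.6 and 61.4 in livers (4.35 ± 0.56, adjusted p = 0.000346). Controls 45 and 168 had it on the pancreas side too (log2 difference 1.03 and 3.37). On the TMM scale control pancreas 168 lay inside the A3B range. C1qa and C1qb, complement C1q chains made by tissue macrophages, were 427 to 785 and 334 to 699 TPM in A3B pancreases against at most 265 and 231 in livers (1.93 ± 0.35 and 1.72 ± 0.30, adjusted p = 0.00196 and 0.00159, and 0.0589 and 0.0539 without mice 44 and 137; differences 2.94 ± 0.63 and 3.28 ± 0.62, adjusted p = 0.0267 and 0.0197). Of 6 Kupffer cell markers, those of the resident liver macrophages, 5 were called lower and 1 higher. Clec4f, a Kupffer cell lectin, was 62.1 to 243 TPM in A3B livers and 0.205 to 1.51 in pancreases (-8.15 ± 0.60, adjusted p = 4.12e-05), and Cd5l, a secreted Kupffer cell protein, 43.7 to 268 and 0.808 to 5.20 (-5.94 ± 0.49, adjusted p = 5.62e-05). Clec4g, of liver sinusoidal endothelium, was 16.8 to 61.9 and 0.0481 to 2.03 TPM (-6.96 ± 0.65, adjusted p = 0.000132).

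Stromal genes were pancreas-sided. Of 19 fibroblast and collagen markers 18 were called higher in A3B pancreas and 1 lower (median 3.68, controls 1.79). The difference from controls was called above 0 for 9, against 5.47% of all genes tested. Col3a1, a fibrillar collagen, was 751, 732, 426, 538 and 588 TPM in A3B pancreases against 15.4 and 55.1 in controls, and 0.726 to 18 in A3B livers (7.28 ± 0.74, adjusted p = 0.00011; difference 4.65 ± 1.21, adjusted p = 0.0475). Col1a2 was 104 to 195 against 2.39 and 7.55 TPM in pancreas (5.15 ± 0.42, adjusted p = 4.36e-05; difference 3.71 ± 0.80, adjusted p = 0.0278). Fn1, fibronectin, which hepatocytes secrete into plasma, was the 1 lower member at 42.2 to 67.4 TPM in A3B pancreases and 135 to 423 in livers (-2.46 ± 0.37, adjusted p = 0.000788; difference 3.50 ± 0.89, adjusted p = 0.0446).

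Lymphocyte markers were low. Of 16 T and cytotoxic markers 10 were called higher in A3B pancreas, and of 14 B and plasma cell markers 9. Medians were 1.63 and 2.33 in A3B animals and 1.73 and 3.12 in controls. The difference from controls was called for 0 genes of either list. Ighm, the IgM heavy chain, was 14.5, 141, 11.6, 6 and 37.7 TPM in A3B pancreases, highest in mouse 49, and 0.988 to 7.16 in livers (2.92 ± 0.24, adjusted p = 4.67e-05). Control pancreas 168 had 96.4 TPM and control pancreas 45 had 3, so in TPM the controls bracketed 4 of the 5 A3B values.

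Among 24 tested p53 targets 14 were called higher in A3B pancreas, 2 lower and 8 were not called (median 1.53). Controls had 7 higher and 4 lower (median 0.56). The difference was called above 0 for 2 and below 0 for 1, against 5.47% and 2.52% of all genes tested. Cdkn1a, the cell cycle inhibitor p21, was 242, 231, 164, 195 and 186 TPM in A3B pancreases and 281, 129, 177, 206 and 123 in A3B livers, against 1.89 to 9.89 TPM in the 4 control libraries. The tissues overlapped and the test did not separate them (-0.03 ± 0.22, adjusted p = 0.919). By library totals the log2 fold change was 0.45 (adjusted p = 0.119). Controls differed by 2.19 ± 0.36 (adjusted p = 0.00158), and the difference of A3B from control animals was -2.33 ± 0.42 (adjusted p = 0.0169). Ei24, a p53-induced gene of the endoplasmic reticulum, was 54.7 to 203 TPM in A3B livers and 12 to 23.9 in pancreases (-2.87 ± 0.29, adjusted p = 0.000103). It was liver-sided in controls 45 and 168 as well (log2 difference -3.35 and -3.28).

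**Figure D4:**
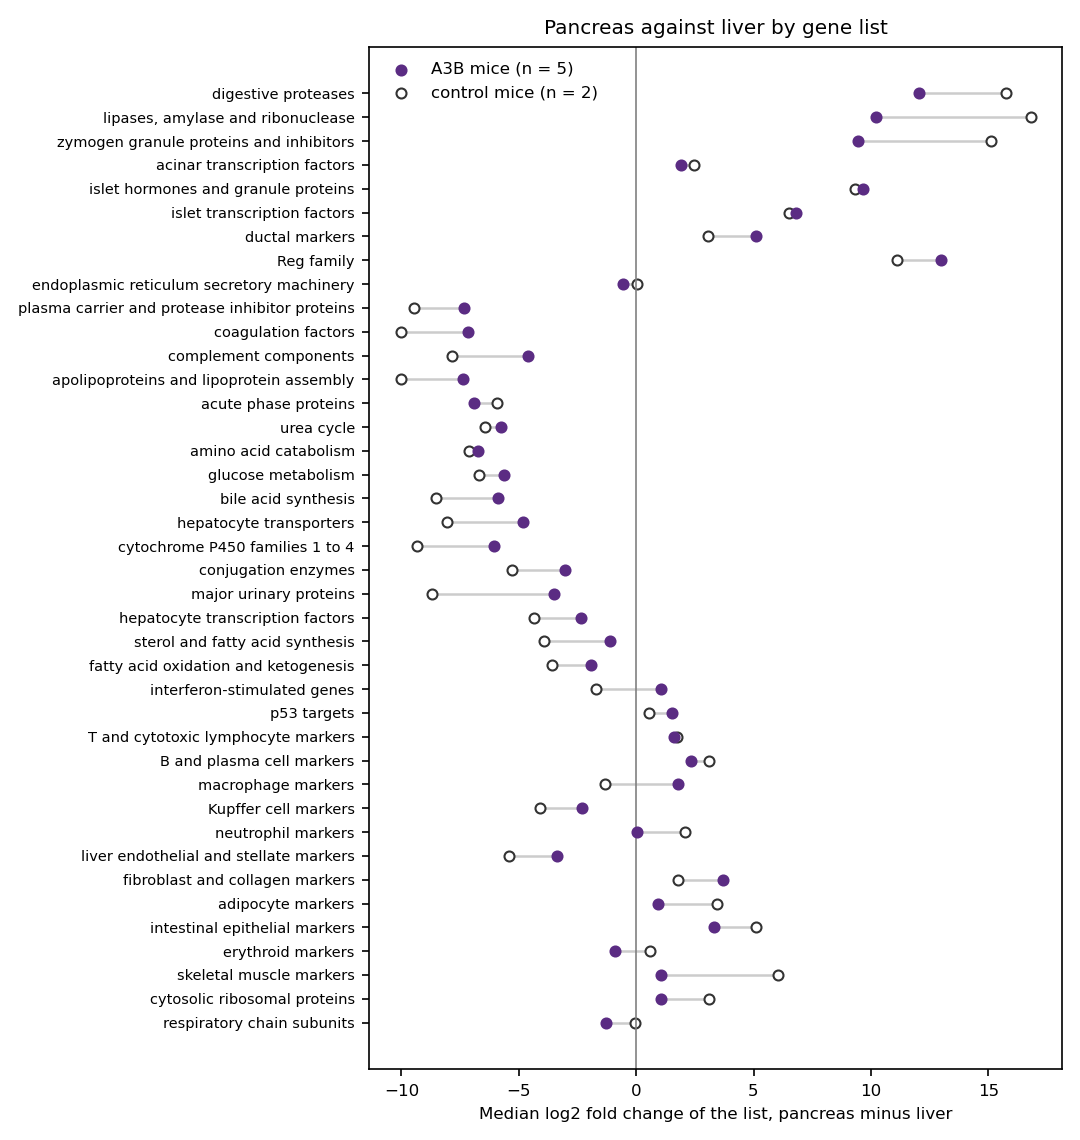
Median log2 fold change, pancreas minus liver, of 40 gene lists in A3B mice (filled, n = 5) and control mice (open, n = 2), with genes without counts in a group placed at the bound of 3 counts. The A3B median lies nearer to 0 than the control median for the enzyme lists (12.07 against 15.76 for proteases) and crosses 0 for interferon-stimulated genes (1.06 against -1.72) and macrophage markers (1.80 against -1.31).

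Tissue-specific genes were then followed one by one. A gene was taken as enriched in a control tissue when its TMM-scaled abundance was at least 8-fold higher there than in the other tissue in both control mice and its mean there was at least 10 TPM. In A3B animals it counted as kept when it was called in the same direction at 8-fold or more, as reduced when called at less than 8-fold, as reversed when called in the opposite direction, and otherwise as not called. Since the control values chose these genes, the counts are a description, and a smaller fold in a second group is partly built in by such a choice.

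Of 243 pancreas-enriched genes 157 were kept (64.6%), 64 reduced (26.3%), 21 not called and 1 reversed. Of 836 liver-enriched genes 513 were kept (61.4%), 257 reduced (30.7%), 64 not called and 2 reversed. For the A3B contrast as a whole, 11.9% of tested genes were called at 8-fold or more on the pancreas side and 5.25% on the liver side, and for the control contrast 10.4% and 6.87%. The median size of the difference went from 6.50 in controls to 4.32 in A3B animals on the log2 scale for the pancreas set and from 5.91 to 4.03 for the liver set. Close to the line between kept and reduced stood Crip1 (3.05) and Hddc2 (2.98) on the pancreas side and Ehhadh (3.03 in size) and Hsd17b4 (2.99) on the liver side, and 19 and 111 genes lay within 0.5 of it. The counts depended on the controls: without control 168, 348 genes met the pancreas rule and 130 of them were kept, and without control 45, 386 and 205 of them. For the liver the counts were 539 of 1032 and 535 of 978. With library totals the counts were 139 of 179 for the pancreas and 485 of 1219 for the liver.

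By list, kept pancreas genes included 17 of the proteases, 12 lipases and amylases, 8 granule proteins, 9 islet genes and 6 Reg genes, and 21 of the 64 reduced ones were ribosomal proteins, Rpl13a, Rps24, Rps12 and Rps25 among them. Kept liver genes included 36 P450 genes, 32 plasma carriers and inhibitors, 20 genes of amino acid catabolism, 16 apolipoprotein genes, 15 coagulation factors and 13 genes of glucose metabolism. Several liver lists were on both sides: 13 conjugation enzymes were kept and 10 reduced, 12 complement components kept and 6 reduced, and 6 hepatocyte transcription factors kept and 6 reduced. For sterol synthesis 4 were kept and 9 reduced, and for fatty acid oxidation 3 and 8. Of the 64 liver genes without a call 11 were major urinary proteins, Mup22, Mup11, Mup3 and Mup14 among the most abundant.

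The 3 reversed genes were Scd1 and Srebf1, described above, and Gm10985. The last was 138 and 85.2 TPM in control pancreases and 44.7 and 5.25 in control livers, and 0 to 15.5 TPM in A3B pancreases and 5.62 to 32.1 in A3B livers (-2.82 ± 1.02, adjusted p = 0.0443). Its call was lost without mouse 44, 137 or 153 (highest adjusted p = 0.094) and without mice 44 and 137 (0.184).

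The same definition in all 5 A3B animals gave 321 pancreas-enriched and 403 liver-enriched genes. The pancreas sets shared 109 genes, 44.9% of the control set and 34.0% of the A3B set. The liver sets shared 359, 42.9% and 89.1%. By this rule the liver list of the A3B animals was nearly contained in that of the controls, and the pancreas list was not. The rule asks for the fold in 5 A3B but only 2 control animals. With a minimum of 1 TPM in place of 10, the control pancreas set grew from 243 to 703 genes and the liver set from 836 to 1042. The part of these settings in the overlap was not tested. Over the control liver set, log2(TPM + 1) differed between A3B and control by a median of 1.45 in the pancreas and -0.59 in the liver, and over the control pancreas set by -0.11 in the pancreas and 0.54 in the liver. Over all genes tested the same medians were 1.18 in the pancreas and 0.21 in the liver. With TMM-scaled CPM in place of TPM the medians were 0.38 and -1.15 for the liver set, -2.20 and 0.24 for the pancreas set and 0.05 and 0.02 for all genes.

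**Figure D5:**
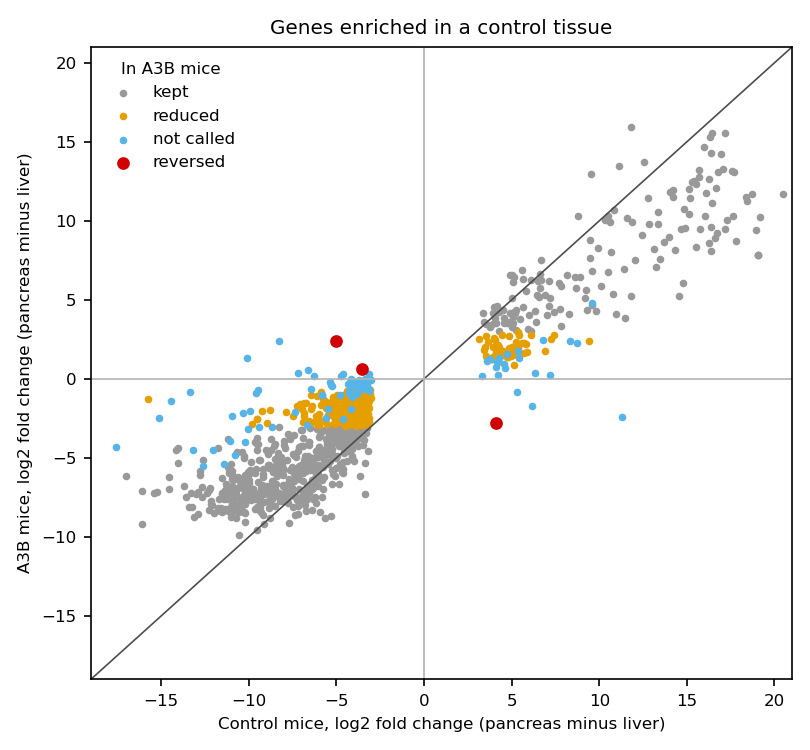
Log2 fold change, pancreas minus liver, in A3B mice against control mice for the 243 pancreas-enriched and 836 liver-enriched genes of the controls, coloured by their class in A3B mice. The line marks equal values. The fold was smaller in A3B mice for 223 and 759 of these genes, and 3 genes were reversed.

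Tested directly, the tissue difference differed between A3B and control animals for 1567 genes (7.99%), 1072 above 0 (5.47%) and 495 below (2.52%). Values of 8-fold or more were called for 1.48% of genes above 0 and for 1.02% below. Among the enriched genes 55 pancreas and 209 liver genes had a called smaller difference and 0 and 0 a larger one, which the choice of genes favours. By library totals 8059 genes were above 0 and 118 below, and the median over all genes moved from 0.14 to 1.79. These calls rest on few animals. Without mice 44 and 137 there were 0 by edgeR, with 3403 genes at an unadjusted p under 0.05, and without control 45 there were 3 (Amy2a5, Myo15b and Slc39a5). The 36 named genes described with a called difference kept their sign under both omissions, with lowest adjusted p of 0.0699 and 0.0615.

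Among genes called for the difference whose mean reached 10 TPM in 1 of the 4 groups, the largest fitted values above 0 were those of Eif4a-ps4, Obp2a, Serpina6, A1bg and Ugt1a9. Eif4a-ps4 and Ugt1a9 had 0 counts in both control pancreases, so the size of their difference is not measured. Eif4a-ps4, a processed copy of a translation factor gene that shares reads with its parent, was 35.4 to 156 TPM in A3B pancreases, 129 to 292 in A3B livers, 0 in both control pancreases and 62.1 and 67.7 in control livers. Obp2a, an odorant-binding lipocalin, was 78.1, 4.83, 146, 112 and 9.26 TPM in A3B pancreases, at most 0.924 in A3B livers and at most 2.38 in a control library (7.96 ± 1.34, adjusted p = 0.00233; difference 13.61 ± 3.26, adjusted p = 0.0434). It was a pancreas-enriched gene of the A3B animals that no control tissue showed at this level. A1bg, known as a female-predominant liver gene, rested on 1 library: control liver 45 held 877 TPM, control liver 168 held 0.436 and the A3B libraries at most 7.78.

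By the same criterion the largest values below 0 were those of Gm29013, Phgr1, Tceal5, Guca2a and Sult1e1. Gm29013 was 1226 and 1232 TPM in control pancreases and at most 11.1 in any A3B library or control liver (difference -14.20 ± 1.15, adjusted p = 0.00677). Phgr1 and Guca2a, genes of the intestinal epithelium, rested on control pancreas 168, which held 129 and 66.8 TPM against 0 in control 45, and their difference turned to 2.68 and 3.35 without mouse 168. Tceal5 was 31.2, 5.31, 14.9, 46.4 and 40.1 TPM in A3B livers and at most 0.384 in any other library of these animals, controls included (-7.88 ± 0.97, adjusted p = 0.000506; difference -12.53 ± 2.68, adjusted p = 0.0355). Cidec, a lipid droplet protein, was 17.7 to 176 TPM in A3B livers against 4.57 and 5.49 in controls (-4.36 ± 0.48, adjusted p = 0.000222). Its difference was -6.88 ± 1.02 (adjusted p = 0.0136). In pancreas its TMM-scaled CPM was 0.727 to 14.3 in A3B animals, 4 of 5 below both controls, against 7.42 and 47.2 in controls 45 and 168. Tceal5 and Cidec were the 2 liver-enriched genes of the A3B animals whose difference was under 2-fold toward the liver in both controls.

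Transcripts of other tissues were measured beside these results. Intestinal markers summed to 24 to 63.7 TPM in A3B pancreases and to 2.07 and 400 in control pancreases 45 and 168, adipocyte markers to 317 to 718 and to 70.2 and 722, and skeletal muscle markers to 7.50 to 15.4 and to 3.10 and 50.9, so in TPM control pancreas 168 was the highest of the 7 on each list and control 45 the lowest. On the TMM scale 168 was still the highest on each, and 45 the lowest for the intestinal list only. Intestinal markers in A3B livers ran from 14.8 to 362 TPM. Erythroid markers summed to 2113 and 2773 TPM in control pancreases and to 41.9 to 914 in A3B pancreases. Their part in the differences above was not tested.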

How the data were processed

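The authors quantified 100-nt paired-end TruSeq stranded libraries with kallisto against mm10 transcripts and deposited, per transcript, an estimated count and a TPM value, not normalized further. Members and gene lists were chosen with earlier results of these data known. Here 116640 of 119414 transcripts were assigned to 35858 genes with GENCODE M21 and summed; transcripts without a gene held 0.23% to 1.47% of counts. Estimated counts were rounded, filtered (filterByExpr), TMM-scaled and tested with edgeR 4.0.16 (robust quasi-likelihood F test, R 4.3.3) with the mouse as a block, and SE is the log2 fold change divided by the root of F. The A3B contrast used 10 libraries, and the control contrast and the difference 14. Samples of a mouse deviated together (correlation of deviations 0.0719 to 0.222, each above the highest with another mouse). Alternatives were no block, library totals, DESeq2 1.42.0, limma 3.58.1 on log2(TPM + 1), other filters and animals left out, and, added after the data were seen, levels as TMM-scaled CPM; scripts were tested on simulated data. Genes were named by a fixed rule (the 5 largest fold changes and differences each way, the most abundant and lowest-p list members, exceptions, and abundant enriched genes not kept), of which a part is described; some items are not reported here. Values are of 1 library per tissue and animal. The edgeR p-values rest on the spread between animals of the pancreas-liver difference. For the control contrast and the difference this spread is shared by both groups.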

Additional observations from a re-analysis of the deposited data

Results flagged for a closer look

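In 29 of 175 groups of 5 A3B libraries or mice looked at, 1 library lay apart from the other 4 by Dixon's criterion. Chance gives this in about 1 in 20 groups of independent, normally spread values. TPM values, some of them near 0, need not be so spread, and no excess is read from the count. Liver 153 was the highest of the 5 for Cela3a (0.148 TPM), Ugt1a9 (51.8 TPM), Try5 (148 TPM), Ptf1a (0.189 TPM), Gcg (0.277 TPM) and Nkx2-2 (0.00809 TPM). Liver 44 was the highest of the 5 for Krt7 (1.55 TPM), A1bg (0.614 TPM), Phgr1 (0.764 TPM) and Krt19 (13.5 TPM). Liver 125 was the highest of the 5 for Kng2 (190 TPM), Fn1 (423 TPM), Igfbp1 (3256 TPM) and Fga (6704 TPM). Pancreas 44 was the highest of the 5 for Scd1 (73.2 TPM) and A1bg (7.78 TPM). Pancreas 153 was the lowest of the 5 for C1qa (427 TPM). Liver 49 was the highest of the 5 for C1qb (231 TPM), Col3a1 (18 TPM) and Lyz2 (283 TPM). Pancreas 49 was the highest of the 5 for Cidec (21.2 TPM), Igfbp1 (9.94 TPM), Gm10319 (0.426 TPM), Tat (46.7 TPM) and Ighm (141 TPM). Pancreas 125 was the highest of the 5 for Tff2 (3133 TPM) and Foxa1 (0.402 TPM). Pancreas 153 was the highest of the 5 for Pdia2 (421 TPM). Liver 125 was the lowest of the 5 for Clec4g (16.8 TPM).

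The tissue difference differed between A3B and control animals for 36 named genes by edgeR's test of the difference. For genes with 0 counts in both control libraries of a tissue, such as Eif4a-ps4 and Ugt1a9 in pancreas, the fitted size is not measured. On the log2 scale, A3B minus control, the values above 0 were those of Eif4a-ps4 (14.34), Obp2a (13.61), Serpina6 (11.32), A1bg (11.22), Ugt1a9 (10.76), Scd1 (7.32), Creb3l3 (4.87), Col3a1 (4.65), Kng2 (4.15), Srebf1 (4.07), Spp1 (4.04), Cfb (4.03), Glul (4.03), Col1a2 (3.71), Irf7 (3.71), Fn1 (3.50), Bst2 (3.49), Fads1 (3.37), C1qb (3.28), Mvd (2.97), C1qa (2.94), Oasl2 (2.83), Cebpa (2.41) and Krt7 (2.19). The values below 0 were those of Gm29013 (-14.20), Phgr1 (-12.61), Tceal5 (-12.53), Guca2a (-10.74), Sult1e1 (-9.84), Cela3a (-8.06), Spink1 (-7.75), Gm10985 (-6.98), Cidec (-6.88), Zg16 (-6.31), Cdkn1a (-2.33) and Spcs2 (-1.78). None of the 36 passed without mouse 45 or without mice 44 and 137, and each kept its sign in both.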

How the results depend on the processing

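For the named genes described, 1210 of the values of the A3B contrast under an alternative stayed on the same side of the threshold with the same direction, 61 lost the call, 9 gained it and 5 turned, and for the differences 334 stayed, 166 lost the call and 4 turned. Without mice 44 and 137 the A3B contrast gave 6132 calls and the difference 0. With animals left out one at a time, the control contrast gave 4600 to 8484 calls and the difference 3 (without mouse 45) to 2724 (without mouse 49). The difference gave 8177 calls by library totals, 3709 by DESeq2, 7355 by limma on log2(TPM + 1) and 7499 with a pseudocount of 0.1. Pairing was by animal; with no replicate block the counts were 10316 for A3B, 8391 for control and 2298 for the difference. With a minimum of 1 TPM, 452 of 703 pancreas-enriched genes were kept, and with a 4-fold rule 775 of 1331 liver-enriched ones. Cdkn1a in A3B mice turned to 0.45 by library totals, 0.21 by limma with either pseudocount (0.206 and 0.207) and 0.031 with 12 unpaired libraries, and ran from -0.23 to 0.0072 with a mouse left out. The difference for Spcs2 turned to 0.13 and 0.14 by limma (pseudocounts 1 and 0.1). Those for Phgr1 and Guca2a ran from -13.95 to 2.68 and from -11.98 to 3.35 with a mouse left out. On the TMM scale in place of TPM, an alternative added after the data were seen, the log2 ratio of the A3B to the control mean level in pancreas turned to -0.61 for Ctrb1, -0.95 for Try5, -1.03 for Ptf1a, -1.53 for Reg1, -1.08 for Ins2, -0.038 for Gcg, -1.65 for Nkx2-2, -0.56 for Pdx1 and -0.36 for the sterol list. The cause was not tested. Only 2 control animals limit every statement on the difference.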
